A study of Mus musculus with 18 samples.

Results

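Ribosome biogenesis and nucleolar genes were followed in MEL cells as these were driven toward hemoglobin production. MEL is a line of mouse erythroid progenitors transformed by the Friend virus complex, and dimethyl sulfoxide (DMSO) induces it to mature. The 57 genes were chosen by symbol for their known part in building ribosomes, and 56 of them were found in the RNA table of 26599 genes. Earlier results of these data were known when they were chosen, so shares among them only describe the list. Noc2l was not listed under its symbol. RNA was taken from untreated cells (day 0) and from cells grown for 5 days in medium with 2% DMSO (day 5). There were 2 biological replicates per day and no genetic change in either group. The series holds no untreated library of day 5, so DMSO cannot be told apart from 5 days in culture. Most but not necessarily all cells of an induced culture made hemoglobin, by the color and stain the labels describe. Values were FPKM (fragments per kilobase of transcript, scaled to the size of the library) per gene and library. They can be compared between genes, and between libraries only as shares that depend on the other RNAs of each library. The read depth of the libraries is unknown.

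Ribosomes are assembled in the nucleolus, around the precursor of the ribosomal RNAs that RNA polymerase I makes. Small nucleolar RNAs in complex with proteins (snoRNPs) guide the chemical modification of this precursor, the small subunit processome folds and cleaves it, and further factors carry the small (pre-40S) and large (pre-60S) precursor particles to maturity. The work takes up much of the energy of a growing cell, and many of the genes are textbook targets of the transcription factor Myc. In the red cell lineage the nucleolus shrinks as precursors stop dividing and mature.

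All 56 listed genes had a negative log2 fold change from day 0 to day 5, as did 42.1% of the 10736 genes tested. Both day 5 libraries lay below both day 0 libraries for each of them, a pattern that 27% of all genes tested showed in this direction. In the fit over all these genes (limma on log2(FPKM + 1), Benjamini-Hochberg adjusted p under 0.05), 36 of the 56 fell, 0 rose and 20 did not pass. Of all genes tested 7.81% fell and 10.7% rose, and of the 5191 genes with a day 0 mean at least as high as that of the lowest of the 56 genes 13.5% fell. Of these 5191 genes 2919 had a negative log2 fold change, and 2064 had both day 5 libraries below both day 0 libraries. The median log2 fold change was -1.06 over the 56 genes, 0.15 over all genes tested and -0.11 over those 5191. At the median a gene kept 46.4% of its day 0 mean FPKM on day 5, with a range from 25.2% (Nolc1) to 86.1% (Noc3l). No gene of the 56 lay above the median change of all genes tested, and 33 had a log2 fold change of -1 or lower, as 9.11% of all genes tested did.

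The calls rest on 2 libraries per day. With no filter on low FPKM 11 of the 56 fell, and with any 1 of the 4 libraries left out 0 passed in limma (36 to 45 at an unadjusted p under 0.05), while all 56 kept a negative fold change. FPKM are shares of a library, so a fall cannot be told apart from a smaller share beside other RNAs that grew, and in such bulk RNA fewer cells of a type cannot be told apart from less RNA per cell. After quantile normalization, which moved the median of all genes tested from 0.15 to 0.01, the median of the 56 genes was -1.10.

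**Figure D1:**
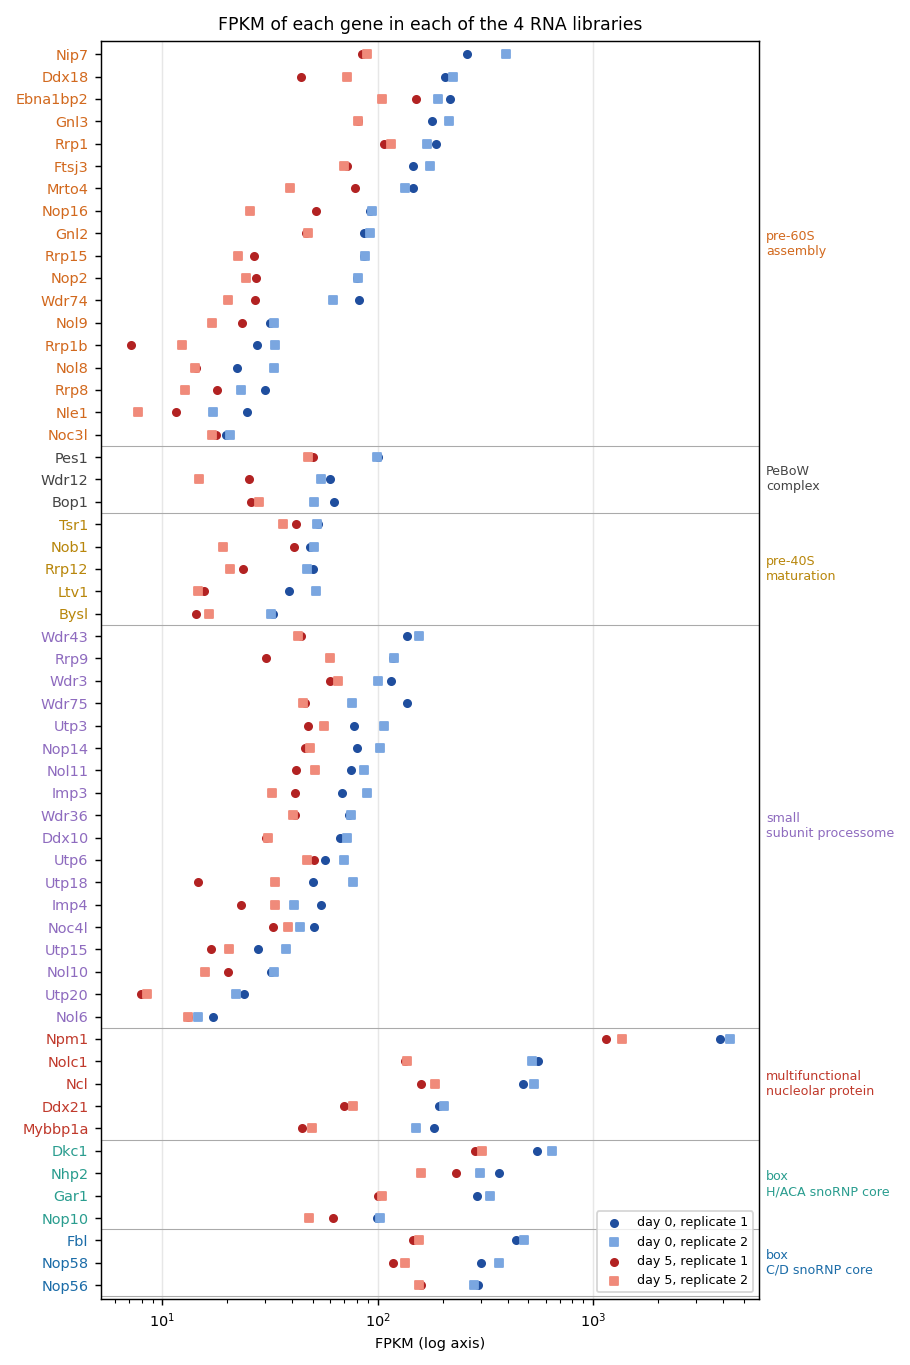
FPKM of each of the 56 genes (rows, grouped by role) in each library, on a log axis; blue marks are the day 0 libraries and red marks the day 5 libraries, circles replicate 1 and squares replicate 2. In every row both red marks lie to the left of both blue marks.

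Cell identity was checked with listed marker genes. Of 12 erythroid markers 9 rose, and their summed FPKM was 1610 to 2344 on day 0 and 31862 to 33646 on day 5. Of 8 macrophage and neutrophil markers 6 were listed at 0 in all 4 libraries (summed FPKM 0.766 to 1.22 on day 0 and 0.628 to 2.09 on day 5), as were 5 of 8 lymphoid markers (2.04 to 5.76 and 0.28 to 0.474). Of 6 fibroblast markers 1 was listed at 0 throughout, and they summed to 2.04 to 5.87 FPKM on day 0 and at most 0.25 on day 5. Thy1, a marker on both of the latter lists, fell from 5.57 and 2.04 FPKM to 0 in both day 5 libraries. With globin and mitochondrially encoded genes removed before scaling, 33 of the 56 ribosome biogenesis genes fell. All FPKM of a library summed to between 758150 and 787494.

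The promoters of these genes were searched for short motifs, because genes that move together can carry common elements. RefSeq windows of 300 bases (250 before and 50 after the start, build GRCm38.p6) were at hand for 49 of the 57 genes, Noc2l included. The E-box CACGTG, the textbook site of Myc and its partner Max and equally of other factors such as USF, was found in 11 genes and in 20% of their 55 windows. It was found in 7.15% of all 32851 windows and 10.4% of the 9541 windows of genes tested. Of these sites 10 are printed to show where the E-box stands, each with its position in GRCm38.p6 and as 30 bases of the strand of the gene, with CACGTG, which reads alike on both strands, in capitals.
Nop2 (chr6:125131811-125131840, plus strand): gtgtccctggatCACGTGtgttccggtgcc
Utp18 (chr11:93885769-93885798, minus strand): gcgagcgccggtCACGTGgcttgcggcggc
Nol11 (chr11:107189407-107189436, minus strand): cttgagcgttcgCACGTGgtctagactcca
Imp4 (chr1:34439696-34439725, plus strand): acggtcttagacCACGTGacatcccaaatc
Wdr43 (chr17:71616220-71616249, plus strand): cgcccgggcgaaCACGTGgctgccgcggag
Mybbp1a (chr11:72441347-72441376, plus strand): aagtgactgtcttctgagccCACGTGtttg
Ltv1 (chr10:13193092-13193121, minus strand): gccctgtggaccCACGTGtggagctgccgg
Utp20 (chr10:88826765-88826794, minus strand): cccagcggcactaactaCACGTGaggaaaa
Nle1 (chr11:82908355-82908384, minus strand): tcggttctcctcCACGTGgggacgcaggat
Tsr1 (chr11:74898092-74898121, plus strand): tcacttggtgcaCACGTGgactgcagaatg
The E-box lay before the start in the 4 genes printed first and after it in the other 7, 6 of which are printed. In Nop2 it covered bases -60 to -55 and in Wdr43 bases 18 to 23 of the transcript.

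Of the 11 genes with CACGTG 7 fell, with a median log2 fold change of -1.37 and a range from -1.80 (Mybbp1a) to -0.42 (Tsr1), and of the 37 tested genes with a window but no CACGTG 23 fell, with a median of -1.08. Nolc1, which had the most negative change of all, has no CACGTG in its window but holds CACGCG, an E-box variant. Its 250 bases before the start (chr19:46075597-46075846, plus strand) are printed with that variant in capitals, on the opposite strand, as an example of a whole promoter of the group.
Nolc1: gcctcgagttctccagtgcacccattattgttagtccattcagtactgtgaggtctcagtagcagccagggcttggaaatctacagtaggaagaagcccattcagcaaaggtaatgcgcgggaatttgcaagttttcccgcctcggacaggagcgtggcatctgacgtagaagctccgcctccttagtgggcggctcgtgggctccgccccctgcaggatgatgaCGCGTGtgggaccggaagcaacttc
CACGCG was found in 14 genes and 27.3% of their windows, and in 17.7% of windows of genes tested. The median log2 fold change was -1.03 over the 13 tested genes with CACGCG and -1.15 over the 35 without it. The motif CCGGAAG, the core of many ETS factor sites, stood in 17 genes and 32.7% of their windows against 19.3% of windows of genes tested, and Nolc1 carries it close to the start. A match describes these letters and is no evidence of binding.

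PU.1, the ETS factor that the study mapped in these cells, binds a longer purine-rich site. The form GAGGAAGT, searched on both strands, stood in 7 genes and 14.5% of their windows, and in 3.07% of windows of genes tested and 3.2% of all windows. Of these sites 5 are printed because PU.1 is the factor of the study, with the motif or its complement in capitals.
Nip7 (chr8:107056665-107056694, plus strand): acggtaccgtcACTTCCTCttcagagccgg
Wdr43 (chr17:71616169-71616198, plus strand): ccctccgccccACTTCCTCcctgcaggccc
Nop14 (chr5:34660249-34660278, minus strand): gccaggaagtcGAGGAAGTgtggcctcctg
Noc3l (chr19:38819249-38819278, minus strand): cgccgcccgaaGAGGAAGTcccgcctcccg
Noc2l (chr4:156235970-156235999, plus strand): ggggctcgcggGAGGAAGTcggagggcgca
Of the 6 tested genes with this motif 5 fell (median log2 fold change -1.37), and of the 42 without it 25 fell (-1.11). Noc3l, which carries it at bases -30 to -23, had the highest log2 fold change of the 56 genes (-0.21). The peaks and DNase sites of the study are in another build (mm9), so binding at these windows was not analysed here. For the other motifs the share of the 55 windows is given beside that of windows of genes tested. GATAA, the core of GATA sites, stood in 5.45% against 16.1%, TATAAA in 5.45% against 6.38%, CCAAT in 32.7% against 38.9% and CATGCG in 10.9% against 10.6%. GCCATNTT stood in 7.27% against 9.22% and AAGATGG in 5.45% against 7.45%. GGGCGG stood in 72.7% against 64.4% and CGCG, which lies within CACGCG, in 76.4% against 70.8%. The NRF1 palindrome stood in 0% against 2.34% and the ZBTB33 (Kaiso) palindrome, which holds CGCG, in 3.64% against 1.15%. The 2 windows with the Kaiso palindrome are both of 1 gene, Nol9, or 2.04% of the 49 genes. Some genes have more than 1 window, and 14 motifs were searched in all.

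The multifunctional nucleolar proteins had the most negative median of the 7 role groups. The groups were drawn up with earlier results of these data known, so this order only describes them. All 5 of their genes fell, with a median log2 fold change of -1.70. Nolc1, a phosphoprotein that serves as chaperone of snoRNPs, stood at 551 and 520 FPKM before DMSO and at 133 and 137 FPKM after it. The replicates of each day lay within a narrow band and the days were 3.96-fold apart (log2 fold change -1.98 ± 0.15 SE, limma adjusted p = 0.00564). Mybbp1a, a nucleolar protein that binds Myb, had 182 and 151 FPKM on day 0 and 44.4 and 49.5 on day 5 (-1.80, limma adjusted p = 0.00983). Npm1, nucleophosmin, a histone and ribosome chaperone, was the most abundant of the 56 genes on both days, at 3860 and 4287 FPKM on day 0 and 1146 and 1362 on day 5 (-1.70, limma adjusted p = 0.0126). Processed pseudogenes of Npm1 can share its reads, so its level is uncertain. Ncl, nucleolin, had 471 and 528 FPKM on day 0 and 158 and 185 on day 5 (-1.54). Ddx21, an RNA helicase that acts on ribosomal RNA transcription and processing, had the least negative change of the group (192 and 203 to 69.8 and 76.5 FPKM, -1.42, limma adjusted p = 0.0115).

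Of the box C/D snoRNPs, which place methyl groups on ribosomal RNA, all 3 core genes fell. Fbl, fibrillarin, the methyltransferase itself, had 436 and 477 FPKM on day 0 and 145 and 155 on day 5 (log2 fold change -1.60 ± 0.16 SE, limma adjusted p = 0.0093). Nop58, one of the scaffold proteins, had 301 and 365 FPKM on day 0 and 117 and 133 on day 5 (-1.41). Nop56, its paralog in the same particle, had 291 and 278 FPKM on day 0 and 158 and 156 on day 5 (-0.85 ± 0.15 SE, limma adjusted p = 0.0256), and did not pass after quantile normalization or without the trend in limma. Fbl stood at 1.5 and 1.72 times the FPKM of Nop56 in the day 0 libraries and at 0.918 and 0.994 times in the day 5 libraries. This pair was chosen after its values were seen, and 2 against 2 libraries cannot give an exact two-sided permutation p under 0.333, the value found.

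The box H/ACA snoRNPs convert uridines of ribosomal RNA to pseudouridine, and 3 of their 4 core genes fell. Gar1, a core protein of the particle, went from 288 and 330 FPKM to 100 and 105 (log2 fold change -1.58 ± 0.16 SE, limma adjusted p = 0.01). Dkc1, dyskerin, the pseudouridine synthase, was second in abundance among the 56 genes on both days, at 547 and 641 FPKM on day 0 and 281 and 305 on day 5 (-1.01, limma adjusted p = 0.0234). Nop10, the smallest core protein, had 98.7 and 102 FPKM on day 0 and 61.6 and 47.8 on day 5 (-0.88), and did not pass without the trend in limma or with no filter on low FPKM. Nhp2 had 365 and 298 FPKM on day 0 and 230 and 158 on day 5 (-0.79), and did not pass (limma adjusted p = 0.0748). Its day 5 libraries lay further apart than those of Gar1. Dkc1 stood at 1.9 and 1.94 times the FPKM of Gar1 on day 0 and at 2.81 and 2.9 times on day 5, again a pair chosen after its values were seen (exact two-sided permutation p = 0.333, the smallest possible).

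**Figure D2:**
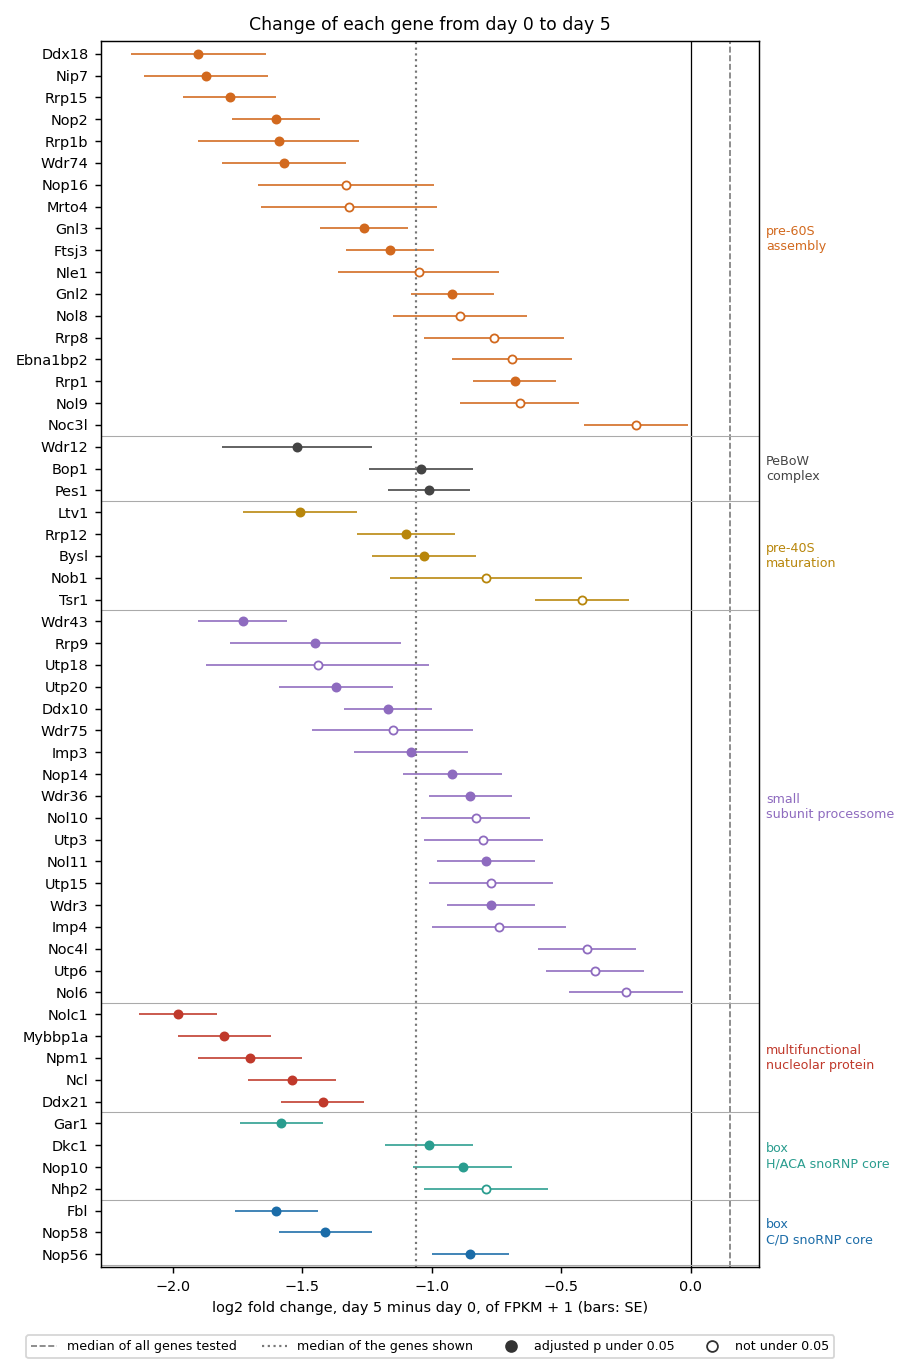
Log2 fold change of each gene (rows, grouped by role; points, with bars for the SE from limma), filled where the adjusted p was under 0.05; the dashed line is the median of all genes tested (0.15) and the dotted line that of the 56 genes (-1.06). All points lie below 0, and the filled ones include all 5 multifunctional nucleolar proteins and all 3 genes each of the box C/D and PeBoW groups.

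The small subunit processome, the large particle that assembles on the newly made precursor around the U3 snoRNA, was split. Of its 18 genes 9 fell and 9 did not pass, with a median log2 fold change of -0.84 and a range from -1.73 to -0.25. Wdr43, the mouse counterpart of yeast Utp5, had 137 and 156 FPKM on day 0 and 44.1 and 42.5 on day 5, with both days tightly grouped (-1.73 ± 0.17 SE, limma adjusted p = 0.00866). Rrp9, a protein that binds the U3 snoRNA, had 118 and 119 FPKM on day 0 but 30.4 and 60 on day 5. It passed narrowly (-1.45 ± 0.33 SE, limma adjusted p = 0.0418), and did not pass under 5 of the alternatives, such as quantile normalization and a pseudocount of 0.1. With 1 library left out its log2 fold change ranged from -1.93 to -0.97. Utp20, a very large scaffold protein, had 23.8 and 22 FPKM on day 0 and 7.98 and 8.48 on day 5 (-1.37), and had the lowest day 5 mean of the 56 genes. Ddx10, a helicase of the particle, had 67 and 72.1 FPKM on day 0 and 30.1 and 30.8 on day 5 (-1.17). Imp3, a U3 snoRNP protein, had 68.5 and 88.7 FPKM on day 0 and 41.1 and 32.3 on day 5 (-1.08). Wdr36, Nol11 and Wdr3, further processome proteins, fell with log2 fold changes of -0.85, -0.79 and -0.77. Nol11 did not pass under 5 of the alternatives and Wdr3 under 4, quantile normalization among them for both, and Wdr36 did not pass without the trend in limma. Imp3 did not pass without the trend or with no filter on low FPKM.

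The 9 processome genes that did not pass fall into different kinds. Utp18 and Wdr75 had large changes and replicates that lay apart. Utp18 had 50 and 76.3 FPKM on day 0 and 14.6 and 33.4 on day 5 (log2 fold change -1.44 ± 0.43 SE, limma adjusted p = 0.071). Wdr75 had 137 and 75.6 FPKM on day 0 and 45.9 and 44.7 on day 5 (-1.15 ± 0.31 SE, limma adjusted p = 0.0558), the widest day 0 gap of the 56 genes on the log2 scale (0.85). Utp3, Utp15, Nol10 and Imp4 had log2 fold changes of -0.80, -0.77, -0.83 and -0.74. Nol6, Utp6 and Noc4l had small ones. Nol6 had 17.1 and 14.7 FPKM on day 0 and 13.1 and 13.2 on day 5, a difference of -0.25 ± 0.22 SE (limma adjusted p = 0.44). Utp6 went from 56.8 and 69.9 to 50.3 and 47.1 FPKM (-0.37) and Noc4l, a partner of Nop14, from 50.7 and 43.7 to 32.7 and 38.4 FPKM (-0.40), neither past the threshold. Nop14 itself had 79.6 and 102 FPKM on day 0 and 45.7 and 48.4 on day 5 and fell (-0.92, limma adjusted p = 0.0354).

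Of 5 genes of the later small subunit particle 3 fell. Ltv1, which is bound to the particle until late in its maturation, had 38.8 and 51.8 FPKM on day 0 and 15.6 and 14.6 on day 5 (log2 fold change -1.51 ± 0.22 SE, limma adjusted p = 0.0186). Rrp12, an export factor, had 50.2 and 46.8 FPKM on day 0 and 23.6 and 20.7 on day 5 (-1.10), and Bysl, bystin, had 32.6 and 32 on day 0 and 14.3 and 16.4 on day 5 (-1.03). Tsr1, a GTPase-like factor that acts in the cytoplasm, had 52.7 and 52.3 FPKM on day 0 and 41.8 and 36.2 on day 5 (-0.42, limma adjusted p = 0.146). Nob1, the nuclease that makes the final cut of the small ribosomal RNA, had 48.2 and 50.4 FPKM on day 0 and 41 and 19.2 on day 5 (-0.79, limma adjusted p = 0.178). Its day 5 libraries differed by more than the lower of them held.

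The PeBoW complex (Pes1, Bop1, Wdr12) is needed to process the RNA of the large subunit, and all 3 genes fell. Pes1 had 100 and 98.6 FPKM on day 0 and 50 and 47.6 on day 5 (log2 fold change -1.01 ± 0.16 SE, limma adjusted p = 0.0206). Bop1 had 62.6 and 50.4 FPKM on day 0 and 25.7 and 28 on day 5 (-1.04). Wdr12 had 60.1 and 54.5 FPKM on day 0 and 25.1 and 14.8 on day 5 (-1.52 ± 0.29 SE, limma adjusted p = 0.0295), and its day 5 replicates lay furthest apart of the 3.

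Of 18 listed pre-60S genes 10 fell and 8 did not pass, with a median log2 fold change of -1.21. Ddx18, a nucleolar helicase, had 204 and 224 FPKM on day 0 and 44.2 and 71.8 on day 5 (-1.90 ± 0.26 SE, limma adjusted p = 0.0161). Nip7, which works in the processing of large subunit RNA, had 259 and 393 FPKM on day 0 and 84.5 and 88.9 on day 5 (-1.87, limma adjusted p = 0.014). Rrp15 had 86.4 and 86.7 FPKM on day 0 and 26.7 and 22.4 on day 5 (-1.78, limma adjusted p = 0.01). In each of these the lower day 0 library lay far above the higher day 5 library. Nop2, an RNA methyltransferase, had 80 and 80.6 FPKM on day 0 and 27.2 and 24.5 on day 5 (-1.60), and Gnl3, nucleostemin, a nucleolar GTPase of proliferating cells, had 178 and 213 FPKM on day 0 and 80.6 and 81 on day 5 (-1.26). The paralogs Rrp1 and Rrp1b both fell, Rrp1 from 187 and 169 to 107 and 115 FPKM (-0.68, limma adjusted p = 0.0441, not passing under 5 of the alternatives) and Rrp1b from 27.6 and 33.4 to 7.16 and 12.3 FPKM (-1.59). Wdr74, Ftsj3 and Gnl2 fell as well, with log2 fold changes of -1.57, -1.16 and -0.92.

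Among pre-60S genes that did not pass, Nop16 and Mrto4 missed the threshold narrowly. Nop16 had 91.5 and 94.1 FPKM on day 0 and 51.5 and 25.5 on day 5 (log2 fold change -1.33 ± 0.34 SE, limma adjusted p = 0.053). Mrto4, a relative of the ribosomal stalk protein P0, had 146 and 134 FPKM on day 0 and 78.3 and 39.3 on day 5 (-1.32 ± 0.34 SE, limma adjusted p = 0.0528). In both the first day 5 library held about 2 times the FPKM of the second, and both passed with a filter of 5 FPKM. Ebna1bp2 had 217 and 191 FPKM on day 0 and 151 and 104 on day 5 (-0.69, limma adjusted p = 0.0877). Nle1, Nol8, Rrp8 and Nol9 had log2 fold changes of -1.05, -0.89, -0.76 and -0.66. Noc3l had 19.7 and 20.7 FPKM on day 0 and 17.8 and 17 on day 5, its difference being the smallest of all (-0.21 ± 0.20 SE, limma adjusted p = 0.489). Of the 20 genes that did not pass, 14 had an unadjusted p under 0.05 in limma. Of all 10736 genes tested 4148 had an unadjusted p under 0.05, while 1989 passed and 8747 did not.

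**Figure D3:**
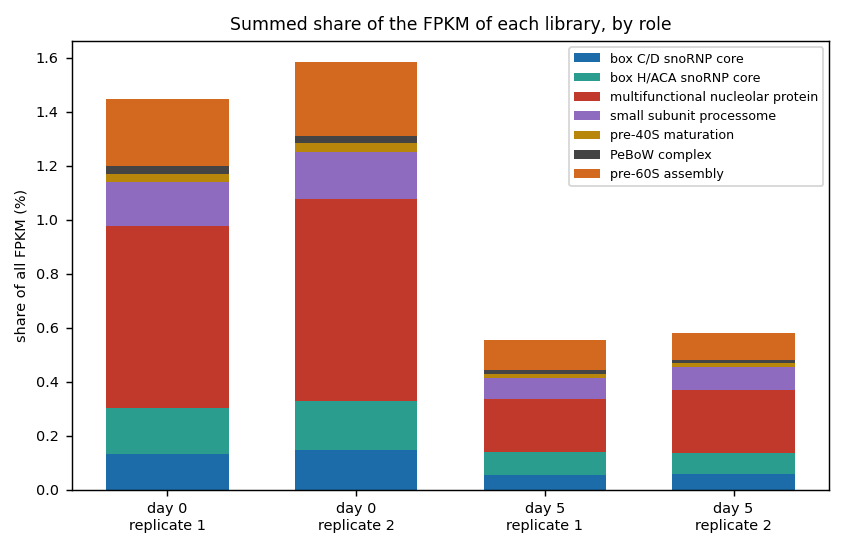
Summed FPKM of the 56 genes as a share (%) of all FPKM in each library (bars), stacked by role. The day 0 bars reach 1.45% and 1.58%, the day 5 bars 0.556% and 0.581%.

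The FPKM of the 56 genes summed to 11205 and 12009 before DMSO and to 4375 and 4539 after it, or 1.45% and 1.58% against 0.556% and 0.581% of all FPKM. Npm1 made up much of this sum, and without it the shares were 0.948% and 1.02% before DMSO and 0.41% and 0.407% after it. The order of levels shifted within the group. On day 0 Npm1, Dkc1, Nolc1, Ncl and Fbl led in this order, and on day 5 Npm1, Dkc1, Nhp2, Ncl and Nop56 did. Nolc1 had rank 3 on day 0 and rank 7 on day 5, and Nhp2 rank 7 on day 0 and rank 3 on day 5. On day 0 the libraries of Dkc1 and Nolc1 (547 and 641 against 551 and 520 FPKM) and those of Nolc1 and Ncl (471 and 528) overlapped, while Npm1 lay far above Dkc1. On day 5 Nhp2 (230 and 158 FPKM) owed its rank to replicate 1, and in replicate 2 it lay below Ncl (158 and 185).

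Across the 56 genes those with higher levels on day 0 had more negative changes, with a Pearson correlation of -0.49 between the mean log2 level on day 0 and the log2 fold change. The day 0 values enter both, and with replicate 1 giving the level and replicate 2 the change it was -0.45. Over all 10736 genes tested the same values were -0.37 and -0.31. The points share libraries and scaling, and these correlations only describe them.

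**Figure D4:**
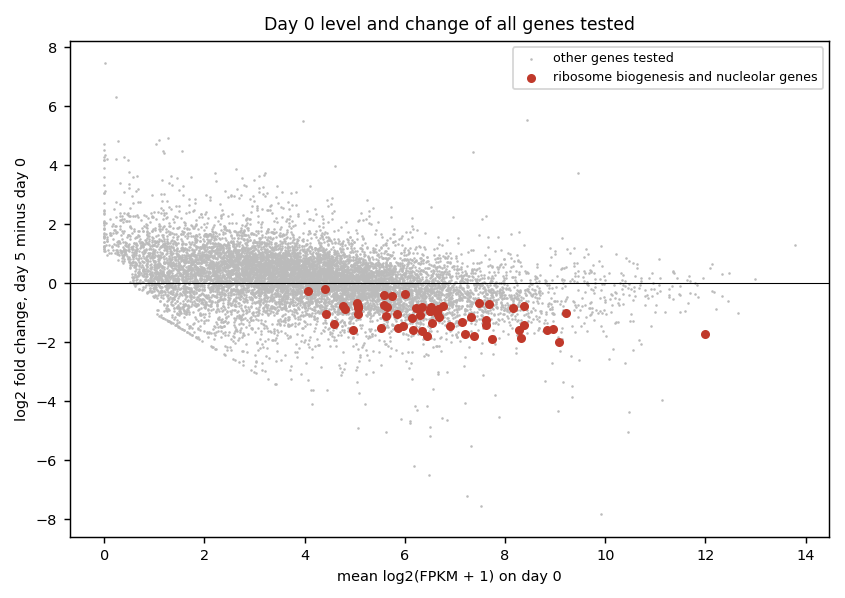
Mean log2(FPKM + 1) on day 0 (horizontal axis) against the log2 fold change from day 0 to day 5 (vertical axis) for all 10736 genes tested (grey) and the 56 genes (red). The red points all lie below 0, between -1.98 and -0.21.

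Replicates of the 56 genes differed by a median of 0.18 on the log2 scale on either day, against 0.27 on day 0 and 0.29 on day 5 for all genes tested. The levels were not matched, as the 56 genes had day 0 means of 15.9 FPKM or more and many genes tested had less. A gap of more than 0.5 between replicates was found for 4 of the genes on day 0 and 12 on day 5, the largest for Utp18 on day 5 (1.14) and Wdr75 on day 0 (0.85). On day 5 replicate 1 was the higher library for 27 of the 56 genes, so neither library stood above the other throughout. A set of 9 genes passed in the reported fit and in each alternative that kept all 4 libraries: Fbl, Gar1, Nolc1, Ddx21, Wdr43, Ddx10, Pes1, Nop2 and Rrp15.

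Several of the genes carry snoRNA genes within their bounds. In RefSeq (GRCm38.p6) 7 of the 57 genes, or 12.3%, enclose an annotated snoRNA, 19 snoRNAs in all, against 2.5% of the 8910 coding genes tested. They are Ncl (Snora75, Snord82), Nop56 (such as Snord57 and Snord110), Nop58 (Snord11, Snord70), Gnl3 (Snord19, Snord69), Wdr43 (Snord53, Snord92), Tsr1 (Snord91a) and Dkc1. Bounds alone were compared, and neither strand nor introns were checked. The median log2 fold change was -1.26 over these 7 genes and -1.05 over the other listed genes. Levels of the snoRNAs themselves were not analysed here.

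The rest of the pathway was read from 4 lists of further factors, none of which is among the 57. These lists too were drawn up with earlier results of these data known. Of 92 such genes tested 38 (41.3%) fell and 0 rose, with a median log2 fold change of -0.80. Of all genes tested 7.81% fell, as did 13.5% of those at least as high on day 0 as the lowest of the 56 genes. A lower mean log2 level on day 5 was found for 86 of the 92, and for 42.1% of all genes tested. Among the 5191 genes at least as high on day 0 as the lowest of the 56 genes it was found for 2919. Of 37 other pre-60S factors 18 fell, with Lyar, a nucleolar zinc finger protein, at 566 and 721 FPKM on day 0 and 106 and 126 on day 5 (-2.46 ± 0.20 SE, limma adjusted p = 0.00603). Nifk, a nucleolar partner of the proliferation marker Ki-67 that the table lists as Mki67ip, had 270 and 330 FPKM on day 0 and 63.9 and 50.7 on day 5 (-2.37, limma adjusted p = 0.00669). Both had more negative changes than any of the 56 genes. The called gene of that list with the least negative change was Znhit6 (-0.93), which was placed there although its known part is in snoRNP assembly. Of 31 other processome and pre-40S factors 12 fell, such as Mphosph10 (117 and 147 to 26.9 and 48.3 FPKM, -1.83) and Aatf (122 and 167 to 43.8 and 65.3 FPKM, -1.40), with Fcf1 at the other end (-0.76).

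The snoRNP assembly factors and the RNA exosome, a 3′ exonuclease that trims ribosomal RNA among many other substrates, were read the same way. Of 10 assembly factors 5 fell, among them Nufip1 (11 and 11.1 to 3.66 and 3.37 FPKM, log2 fold change -1.42), the ATPase gene Ruvbl2 (143 and 118 to 59.4 and 47.4 FPKM, -1.28) and Nhp2l1, which binds box C/D snoRNAs (-0.91). Nhp2l1 is itself a core protein of the box C/D particle, though it was placed in this list. Of 14 exosome and trimming genes 3 (21.4%) fell and 11 did not pass, and the list median was -0.58. Of genes tested with a day 0 mean at least as high as the lowest of the listed ribosome biogenesis genes 13.5% fell. The difference between these shares was not tested. The 3 genes were Exosc1 (98.7 and 106 to 45.3 and 36.5 FPKM, -1.31), Exosc5 (-1.15) and Dis3. Dis3, a nuclease gene, went from 24.2 and 30.7 to 12.4 and 13.8 FPKM. A lower mean log2 level on day 5 was found for 12 of the 14, while Exosc4 (0.28) and C1d (0.36) had positive log2 fold changes. Both day 5 libraries lay below both day 0 libraries for 10 of the 14. Over all genes tested 42.1% had a lower mean log2 level and 27% had both day 5 libraries below both day 0 libraries. Of the 5191 genes at least as high on day 0 as the lowest listed ribosome biogenesis gene, 2919 and 2064 did. With no filter on low FPKM 3 of the further factors fell, and 0 passed in limma with any 1 library left out.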

How the data were processed

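Total RNA of MEL cultures gave 4 stranded RNA-seq libraries, 2 per day, grouped by their titles. The authors deposited FPKM per gene in 1 merged table. Per the submitters' processing notes Bowtie and the mm9 build were used (versions not named), and how FPKM were made is not stated in the labels. Genes reaching 1 FPKM in 2 or more libraries (10736, all 56 listed genes among them) were taken as log2(FPKM + 1), which understates fold changes of low genes, and compared with limma 3.58.1 in R 4.3.3 (eBayes with trend, two-sided, day as the sole term). P-values were adjusted over all 10736 genes, with 0.05 as the threshold. The fit was tested on simulated data. FPKM carry no counts, so no counting interval is given.

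Genes, role groups and lists were chosen with earlier results of these data known. Values were to be given, per role group, for the 2 most negative changes, the most abundant and the least negative gene, for up to 10 abundant genes not called, and per further list for the 2 most negative and the least negative called genes; other genes of the 57 complete their group. In the further lists Nop9 and Nifk were matched by gene ID or older symbol, and Exosc6 was not matched. Alternatives were a pseudocount of 0.1, no filter, a filter of 5 FPKM, quantile normalization, removal of globin and mitochondrially encoded genes, no trend, a replicate block and each library left out. PU.1, DNase and ChIA-PET regions (mm9) were not used here, since the gene tables at hand are in GRCm38.p6. A few promoter sites are not reported here.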

Additional observations from a re-analysis of the deposited data

How the results depend on the processing

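All 56 genes had a negative log2 fold change under each alternative run, and 0 rose in any. With no filter on low FPKM 237 genes of the table passed in place of 1989 (15168 were then tested), 11 of the 56 genes fell in place of 36, and 3 of the further factors in place of 38. Leaving out 1 library in turn gave 0 to 13 called genes of the table, 0 of the 56 genes and 0 of the further factors in limma; at an unadjusted p under 0.05 it gave 2504 to 3440 genes and 36 to 45 of the 56. The 13 were called without day 5 replicate 2. A day with 1 library was then assumed to vary like the other day. The median change of the 56 genes was -0.98 after removal of globin and mitochondrially encoded genes, when that of all genes tested was 0.23. The other alternatives called 27 (no trend) to 40 (filter of 5 FPKM, replicate block) of the 56.

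With the replicate block 1797 genes passed and 40 of the 56 fell. The labels give the replicate number no shared batch, and deviations of same-numbered libraries correlated at 0.048 across the genes tested and at 0.301 across the 56 genes. With 2 numbers and no label that ties them, the libraries were not treated as pairs. Nhp2, Utp3, Utp18, Wdr75, Nop16 and Mrto4 passed with the block and not in the reported fit, and Wdr3 and Rrp1 were among the genes that no longer passed.

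The planned counts of DNase sites, PU.1 peaks and polymerase II contacts at the starts of these genes were not run, for want of gene positions in the build of those files. With 2 libraries per day and unknown depth, differences of the size seen for Noc3l and Nol6 were not detectable.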
